A study of Mus musculus with 12 samples.

Results

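Uncompressed culture was compared between day 5 and day 2. The comparison used 6 of the 12 RNA-seq libraries of the series, chosen by their labels: 3 libraries of muscle stem cells (MuSCs) cultured for 5 days without compression (5d-U, replicates 1, 2 and 6) and 3 of MuSCs cultured for 2 days without compression (2d-U, replicates 1, 2 and 3). The cells of both groups came from the hindlimbs of adult Pax7-ZsGreen mice, in which a green protein marks cells that express Pax7, and were purified by FACS for that signal. They were plated on plastic coated with Matrigel and fibronectin and kept in the same growth medium, DMEM with horse serum, fetal bovine serum, chicken embryo extract and FGF. No differentiation medium was used and neither group carried a compression device, so the groups differ by time in culture. The other 6 libraries were compressed for the last 3 of 5 days (2+3d-C) or taken directly at sorting (F). RNA was released by adding TRIzol to the whole culture, so each library holds all the cells of a well, and a change in the share of a cell type cannot be told apart from a change in RNA per cell. The labels do not say that the 3 libraries of a group came from separate mice or cultures, so the p-values below measure only the spread between these libraries, which may be technical.

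MuSCs are the stem cells of skeletal muscle. Once activated they divide as myoblasts that express Myf5 and Myod1. To differentiate, a myoblast induces Myog and the Mef2 factors, leaves the cell cycle with the help of inhibitors such as Cdkn1a and Cdkn1c, fuses with its neighbours through Mymk and Mymx, and builds sarcomeres, the contractile units of actin, myosin, troponin and titin. Growth factors and serum keep most myoblasts dividing, but some differentiate in growth medium as cultures become dense.

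The 3 5d-U libraries did not resemble each other as closely as the 3 2d-U libraries did, and replicate 1 stood apart. The libraries held 20953163 to 30593562 reads on genes in 5d-U and 20329459 to 45003574 in 2d-U, against 12540745 to 62424851 over all 12 libraries. Pairs of 2d-U libraries correlated across genes at Pearson's r of 0.953 to 0.963 and pairs of 5d-U libraries at 0.800 to 0.857 (genes are not independent replicates). Levels are given as CPM, the counts of a gene scaled to the library total. For 8183 genes averaging 10 CPM or more, the median SD of log2(CPM + 1) was 0.56 in 5d-U and 0.21 in 2d-U. Reads on 1549 genes of families that muscle cells do not use (olfactory, vomeronasal and taste receptors, defensins and hair keratin proteins) had a density of 3.78, 0.0621 and 0.646 reads per kb in 5d-U replicates 1, 2 and 6 and of 0.0103 to 0.0262 in 2d-U. Genes of the mitochondrial genome took 5.85%, 0.578% and 0.962% of the reads in 5d-U and 0.0681% to 0.162% in 2d-U. Results are therefore given for each library, and with and without 5d-U replicate 1. The part of these differences in the results was not tested, except by the alternatives named beside them.

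More genes were called higher on day 5 than lower. Of 22635 genes tested, 424 were higher in 5d-U (1.87% of the genes tested) and 55 lower (0.243%) with edgeR's quasi-likelihood test at an adjusted p under 0.05. An unadjusted p under 0.05 was reached by 7472 genes higher and 467 lower. Every 5d-U library was above every 2d-U library for 31.6% of the genes tested and below for 5.43%. The median log2 fold change over all tested genes was 1.13, and 0.65 without TMM scaling, so the values below are best read against that shift. For 9689 genes averaging 5 CPM or more it was 0.30 with and -0.13 without TMM, and 141 of them were higher (1.46%) and 53 lower (0.547%). Of the 424 higher genes, 208 had a mean under 1 CPM and 264 had no read in any 2d-U library. The highest of the 3 5d-U libraries was replicate 1 for 224 of the 424, replicate 6 for 151 and replicate 2 for 49. With replicate 1 left out, 579 genes were higher (2.15%) and 71 lower (0.263%), among them 356 of the 424 and 38 of the 55. Single libraries moved the count of higher genes from 142, without 2d-U replicate 3, to 1239, without 2+3d-C replicate 10. Without TMM scaling 126 genes were higher and 45 lower, which is 73.7% of the calls higher instead of 88.5%. Values in CPM below are scaled by TMM.

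**Figure D1:**
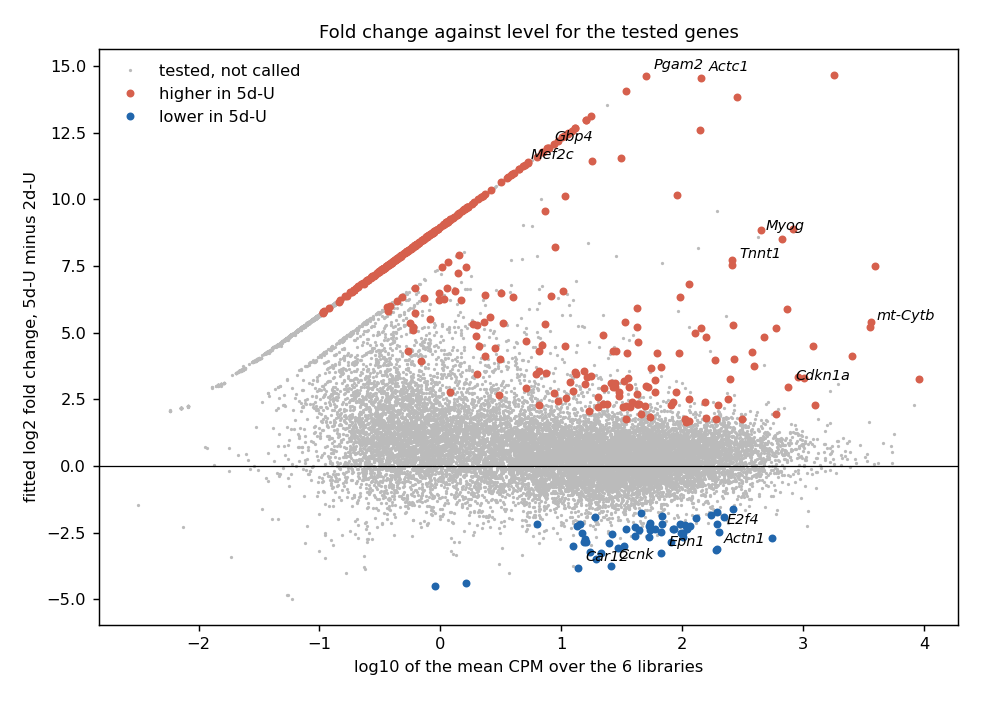
Fitted log2 fold change of 5d-U against 2d-U (vertical axis) against the log10 of the mean CPM over the 6 libraries (horizontal axis), for 22605 genes, with genes called higher in red and genes called lower in blue. The called genes lie mostly above 0, and 208 of the 424 genes called higher have a mean under 1 CPM.

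Myog, the factor that starts terminal differentiation, was high in some 5d-U libraries and not in others (ENSMUSG00000026459.5, mm10 chr1:134289989-134292548, plus strand). Myog had 0.564, 876 and 1655 CPM in 5d-U replicates 1, 2 and 6 and 3.25, 0.705 and 2.66 CPM in 2d-U. Replicates 2 and 6 were far above every 2d-U library while replicate 1 was below all of them, so the groups overlapped. The log2 fold change was 8.57 with a standard error (SE) of 2.27 and did not pass the quasi-likelihood test (adjusted p = 0.0607). Without replicate 1 the adjusted p was 0.00349, and over 21 alternative settings it ranged from 2.07e-30 to 0.265, with 7 of them under 0.05. Mef2c, a partner of the myogenic factors at muscle genes, rose. It had 4.03, 10.5 and 14.4 CPM in 5d-U and no read in any 2d-U library, an at least 120.1-fold higher mean (quasi-likelihood adjusted p = 0.0119), and passed under each of the 20 alternatives in which it was tested. In replicate 1, however, the density of reads over the silent families corresponds to 2.58 CPM over the exons of Mef2c. Id4, a member of the Id family of inhibitors of myogenic factors, had 3.81, 16.8 and 15.3 CPM in 5d-U against 0.850, 0.588 and 1.55 in 2d-U and rose by 3.58 on the log2 scale (SE 0.71, quasi-likelihood adjusted p = 0.0251). Of the 35 myogenic factors tested, Mef2c and Id4 were the 2 called higher and none was lower, against 1.87% and 0.243% of all tested genes. Without replicate 1, 6 were higher and 2 lower.

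The factors that mark MuSCs and dividing myoblasts were not called. Pax7, the defining factor of MuSCs, had 33.6, 14.3 and 30.6 CPM in 5d-U and 37.9, 29.9 and 33.3 in 2d-U (log2 fold change -0.36, SE 0.46, quasi-likelihood adjusted p = 0.628). Myf5 had 189, 138 and 129.8 CPM against 161, 158 and 200.1 CPM (log2 fold change -0.18, SE 0.51). Myod1 had 1121, 1765 and 2375 CPM against 1379, 1198 and 1078 (log2 fold change 0.53, SE 0.42). The libraries of the groups overlapped for all 3 genes. In replicates 2 and 6, in which Myog was high, Myod1 was above every 2d-U library and Myf5 was below every 2d-U library. Pax7 was below the 2d-U libraries in replicate 2 and among them in replicate 6. The 11 fixed markers of skeletal myoblasts held 4109 to 6859 CPM together in 5d-U and 3757 to 4573 in 2d-U, and none was called in either direction, nor did any reach an unadjusted p under 0.05. DESeq2 called none either. Without replicate 1, 1 was called lower and none higher, and so it was with the GC and length trends described below removed. Every 5d-U library was below every 2d-U library for Vcam1 and Itga7, and above for Des and Chrna1.

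The promoters of Myog and of 3 genes with the largest rises among muscle proteins are shown because these genes moved together in replicates 2 and 6. They are from RefSeq on GRCm38.p6 (mm10), from 250 bases before to 50 bases after the start of each gene, 5′ to 3′ on the strand of the gene. Capitals mark each match to CANNTG, the E-box bound by myogenic factors, searched on both strands.
Myog: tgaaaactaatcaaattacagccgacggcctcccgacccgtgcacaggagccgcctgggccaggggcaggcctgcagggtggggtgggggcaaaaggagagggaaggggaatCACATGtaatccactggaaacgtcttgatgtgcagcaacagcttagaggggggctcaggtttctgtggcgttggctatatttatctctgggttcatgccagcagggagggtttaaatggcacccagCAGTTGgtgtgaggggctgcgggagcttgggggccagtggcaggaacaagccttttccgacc
Pgam2: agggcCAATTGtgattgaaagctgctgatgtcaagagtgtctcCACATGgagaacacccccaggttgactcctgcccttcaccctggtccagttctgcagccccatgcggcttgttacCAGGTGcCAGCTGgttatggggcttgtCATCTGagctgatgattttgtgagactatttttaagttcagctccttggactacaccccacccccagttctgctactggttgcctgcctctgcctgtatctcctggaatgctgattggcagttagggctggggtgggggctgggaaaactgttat
Actc1: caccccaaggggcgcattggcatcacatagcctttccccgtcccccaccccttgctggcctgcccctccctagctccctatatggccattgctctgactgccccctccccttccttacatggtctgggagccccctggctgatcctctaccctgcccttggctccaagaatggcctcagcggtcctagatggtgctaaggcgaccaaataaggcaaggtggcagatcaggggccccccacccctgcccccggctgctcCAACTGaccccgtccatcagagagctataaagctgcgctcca
Casq2: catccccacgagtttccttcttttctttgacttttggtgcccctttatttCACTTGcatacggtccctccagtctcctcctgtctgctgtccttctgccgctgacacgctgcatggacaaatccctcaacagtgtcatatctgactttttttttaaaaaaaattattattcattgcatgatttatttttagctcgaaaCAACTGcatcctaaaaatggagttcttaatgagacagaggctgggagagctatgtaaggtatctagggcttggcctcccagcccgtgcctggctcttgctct
These windows lie at chr1:134289754-134290053 (plus strand), chr11:5803747-5804046 (minus strand), chr2:114052826-114053125 (minus strand) and chr3:102086165-102086464 (plus strand). Myog has 2 matches, the nearer beginning 12 bases before the annotated start, and Pgam2 has 5. Actc1 has 1 just after its annotated start, and Casq2 has 2. Where transcription starts in these cells was not tested. CANNTG is common: 72.3% of 32851 promoters of this length hold it. Its form CAGCTG, a preferred site of MyoD and myogenin, is in 16.3% of the promoters, and of the 4 shown in Pgam2 alone. The form CACCTG is in 20.2% and the MCAT motif CATTCC, bound by TEAD factors, in 14.7%. Of the 75 sarcomere genes tested, 61 have a promoter in the table, and 51 of them (83.6%) hold CANNTG, 20 (32.8%) CAGCTG, 19 (31.1%) CACCTG and 21 (34.4%) CATTCC, beside 72.1%, 16.1%, 20.0% and 14.6% of 27025 genes counted by 1 promoter each. These are counts of letters and say nothing of whether a factor was bound.

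The fusion genes Mymk and Mymx were high in the libraries in which Myog was high. Mymk, the muscle membrane protein that begins fusion, had 1.99, 67.6 and 338 CPM in 5d-U replicates 1, 2 and 6 and 2.00, 0 and 0 CPM in 2d-U. Mymx, the small protein that completes fusion, had 0.260, 35.6 and 62.9 CPM against 0.265, 0 and 0. Both were level with the highest 2d-U library in replicate 1, so neither was called (quasi-likelihood adjusted p = 0.0894 for Mymk and 0.0806 for Mymx). Without replicate 1 the adjusted p was 0.0264 for Mymk, which ranged from 4.47e-16 to 0.184 over its alternatives, and 0.0218 for Mymx, which ranged from 3.24e-08 to 0.199. Jam2, an adhesion molecule of fusing myoblasts, was the 1 gene of 34 for adhesion and fusion that rose, with 64.6, 147 and 368 CPM in 5d-U against 52.1, 32.6 and 17.0 in 2d-U (log2 fold change 2.51, SE 0.58, quasi-likelihood adjusted p = 0.0419). Its libraries did not overlap, replicate 1 included. At least 4-fold above the 2d-U mean were 1, 7 and 9 of the 34 in replicates 1, 2 and 6. The 1 call of 34 is near the 1.87% of all tested genes that rose, and it became 0 after subtraction of the silent-family density and 6 without replicate 1. The tetraspanins Cd9 and Cd81 were the most abundant members on the CPM scale apart from Rac1, and neither was called.

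**Figure D2:**
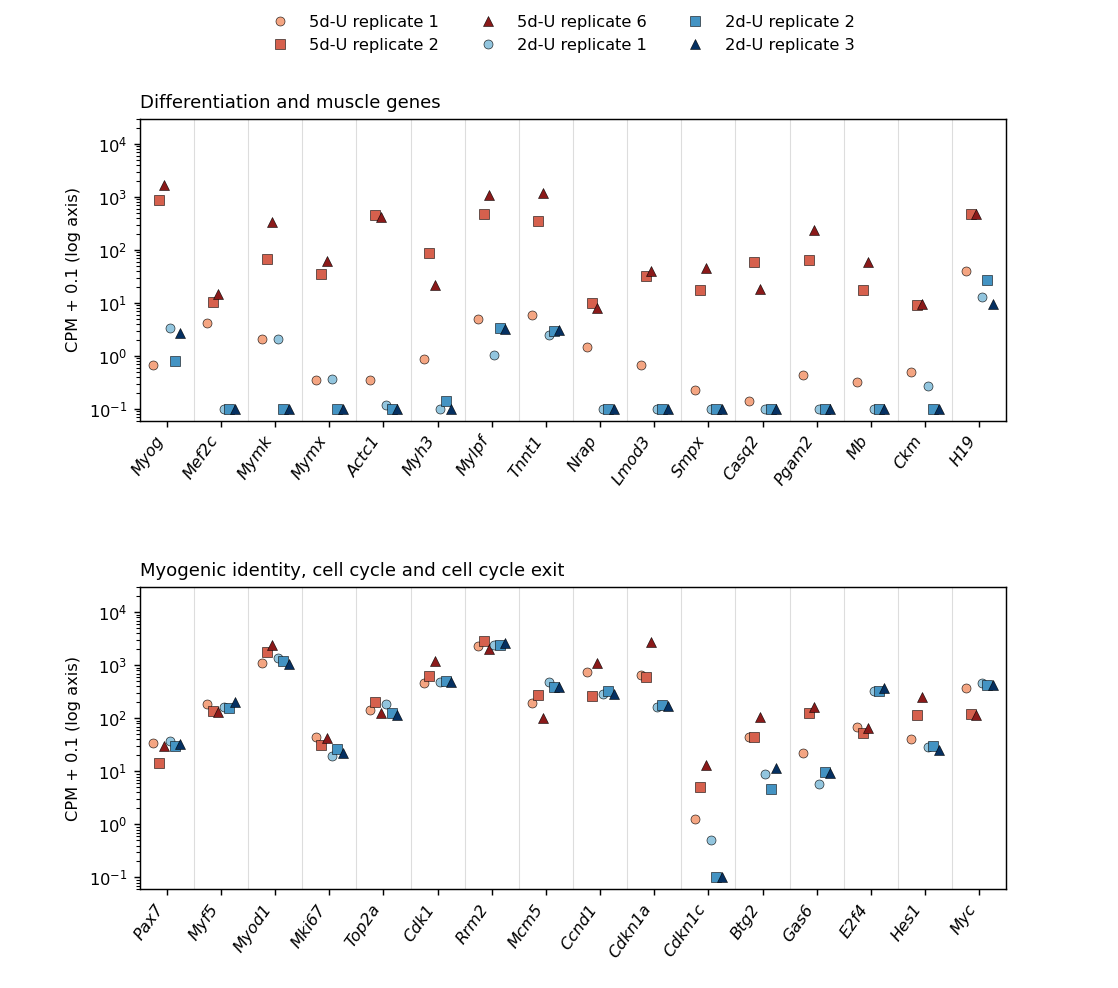
Level of single genes in each of the 6 libraries, as CPM plus 0.1 on a log axis, with a marker per library and the genes named below the axis. Muscle genes such as Myog (0.564, 876 and 1655 CPM in 5d-U) are high in replicates 2 and 6 and near the 2d-U libraries in replicate 1.

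Of 75 sarcomere genes tested, 20 rose (26.7%, against 1.87% of all tested genes) and none fell, 48 had every 5d-U library above every 2d-U library (31.6% of all tested genes did), and the median log2 fold change was 6.00 (1.13 over all tested genes). At least 4-fold above the 2d-U mean, on the log2(CPM + 1) scale, lay 6 members in replicate 1, 33 in replicate 2 and 37 in replicate 6, out of 812, 457 and 1411 of all tested genes. Without replicate 1, 30 were higher, and without replicate 6, 11. With the 6 compared libraries alone 23 were higher, beside 3.29% of all genes higher and 1.99% lower. Once the read density of the silent families was subtracted from every library, 4 were higher (0.503% of all genes tested that way were, and 0.241% lower), and 22 when replicate 1 was also left out. Tnnt1, troponin T of slow fibres, had 5.94, 355 and 1183 CPM in 5d-U and 2.44, 2.82 and 3.06 in 2d-U. All 3 5d-U libraries were above 2d-U, replicate 1 by less than 2-fold and the other replicates by far more. Its log2 fold change was 7.54 (SE 1.43, quasi-likelihood adjusted p = 0.0208), and it passed in all 21 alternatives.

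Actc1, the actin of embryonic and cardiac muscle, had 0.260, 449 and 410.2 CPM in 5d-U and a single read, 0.0189 CPM, in 1 of the 3 2d-U libraries. The ratio of the means was 45453 with a 95% counting interval of 8158 to 1795301, which covers counting error only (quasi-likelihood adjusted p = 0.0361). Replicate 1 was at the level that the silent families' density gives over its exons, 0.265 CPM. Myh3, the embryonic myosin heavy chain, had 0.780, 85.8 and 21.3 CPM against 0, 0.0392 and 0, a ratio of 2753 with a counting interval of 494 to 108748 (quasi-likelihood adjusted p = 0.0462). For Actc1 and Myh3 alike, replicate 2 was the highest library and not replicate 6. The near-identical coding regions of Actc1, Acta1 and Acta2 make the split of reads among these actins uncertain. Acta1, the adult skeletal actin, had 151, 1052 and 1452 CPM against 77.5, 74.5 and 42.8 and was not called (quasi-likelihood adjusted p = 0.0873).

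The sarcomere genes Mylpf, Tpm2, Ttn, Neb, Cryab and Acta1 were chosen after their values were seen. Mylpf, the regulatory light chain of fast fibres, had 4.90, 470.3 and 1065 CPM against 0.964, 3.21 and 3.08 (log2 fold change 7.74, SE 1.70, quasi-likelihood adjusted p = 0.0361). Tpm2, a tropomyosin, had 71.6, 654 and 1483 CPM against 54.4, 67.7 and 43.9 (log2 fold change 3.73, SE 0.80). Replicates 2 and 6 were far above 2d-U for both genes, and replicate 1 was within a few CPM of the highest 2d-U library for Mylpf and near it for Tpm2. The giant proteins were different: Ttn had 119.6, 59.5 and 71.6 CPM against 5.54, 1.06 and 3.34, and Neb 36.5, 41.9 and 120.5 against 1.66, 2.23 and 0.864. For Ttn replicate 1 was the highest, where the silent density would give 19.2 CPM over its long exons. Both rose (quasi-likelihood adjusted p = 0.0388 for Ttn and 0.0231 for Neb). Cryab, a small heat-shock protein of the Z-disc, had 249, 221 and 886 CPM against 47.0, 52.4 and 41.5 and was high in all 3 5d-U libraries (log2 fold change 3.27, SE 0.68, quasi-likelihood adjusted p = 0.0304). Per kb of exon, the embryonic-type genes differed in level: mean RPKM in 5d-U was 234 for Tnnt1, 177 for Actc1 and 5.93 for Myh3. Abundant sarcomere-list members that dividing myoblasts also express were not called, among them Ankrd1 with 2549, 2463 and 2394 CPM against 1983, 1877 and 1940.5, and Tpm1 with 1591, 3359.9 and 2987 against 1942, 1729.8 and 1752.

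Genes that handle calcium and fuel in muscle rose as well. Pgam2, the muscle form of a glycolytic mutase, had 0.347, 63.9 and 239 CPM in 5d-U and no read in 2d-U (at least 1260.1-fold, quasi-likelihood adjusted p = 0.0251). Casq2, a calcium store of the sarcoplasmic reticulum, had 0.0434, 60.1 and 18.0 CPM and no read in 2d-U (at least 325-fold, quasi-likelihood adjusted p = 0.0273). Mb, the oxygen store myoglobin, had 0.217, 17.5 and 60.3 CPM and no read in 2d-U (at least 324-fold). Replicate 1 held fewer than 10 reads of each of the 3. Art3, an ectoenzyme of muscle membranes, had 2.60, 33.5 and 11.2 CPM against 0 in every 2d-U library (at least 196-fold, quasi-likelihood adjusted p = 0.00760). Ckm, the creatine kinase of mature muscle, reached 0.390, 8.93 and 9.62 CPM against 0.170, 0 and 0, a log2 fold change of 6.50 (SE 1.53, quasi-likelihood adjusted p = 0.0445). By list, 6 of 27 genes of muscle energy metabolism rose, 4 of 38 of excitation-contraction coupling and the endplate (Ryr3, Casq2, Hrc and Trdn), 2 of 24 sarcomere assembly factors (Asb2 and Hspb3) and 2 of 19 of the dystrophin complex (Sgca and Utrn), and none fell. Over all tested genes 1.87% rose. After subtraction of the silent-family density the counts were 1, 1, 0 and 0 in the same order, without replicate 6 they were 2, 2, 1 and 0, and without replicate 1 they were 9, 10, 8 and 3. Their median log2 fold changes were 4.35, 2.78, 4.00 and 0.76. At least 4-fold above the 2d-U mean in replicates 1, 2 and 6 were 2, 10 and 12 metabolic genes, 3, 12 and 14 coupling genes, 1, 17 and 19 assembly factors and 1, 5 and 5 genes of the dystrophin complex. Utrn, the relative of dystrophin, was highest in replicate 1, with 35.6, 20.1 and 25.6 CPM against 6.61, 6.78 and 6.09. Genes already abundant on day 2 were not called: Eno3, the muscle enolase, had 1374, 2631 and 4645 CPM against 1299, 1533 and 1365, and Chrna1, a subunit of the acetylcholine receptor, had 1582, 2761 and 3267 against 1539, 1312 and 1176.

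**Figure D3:**
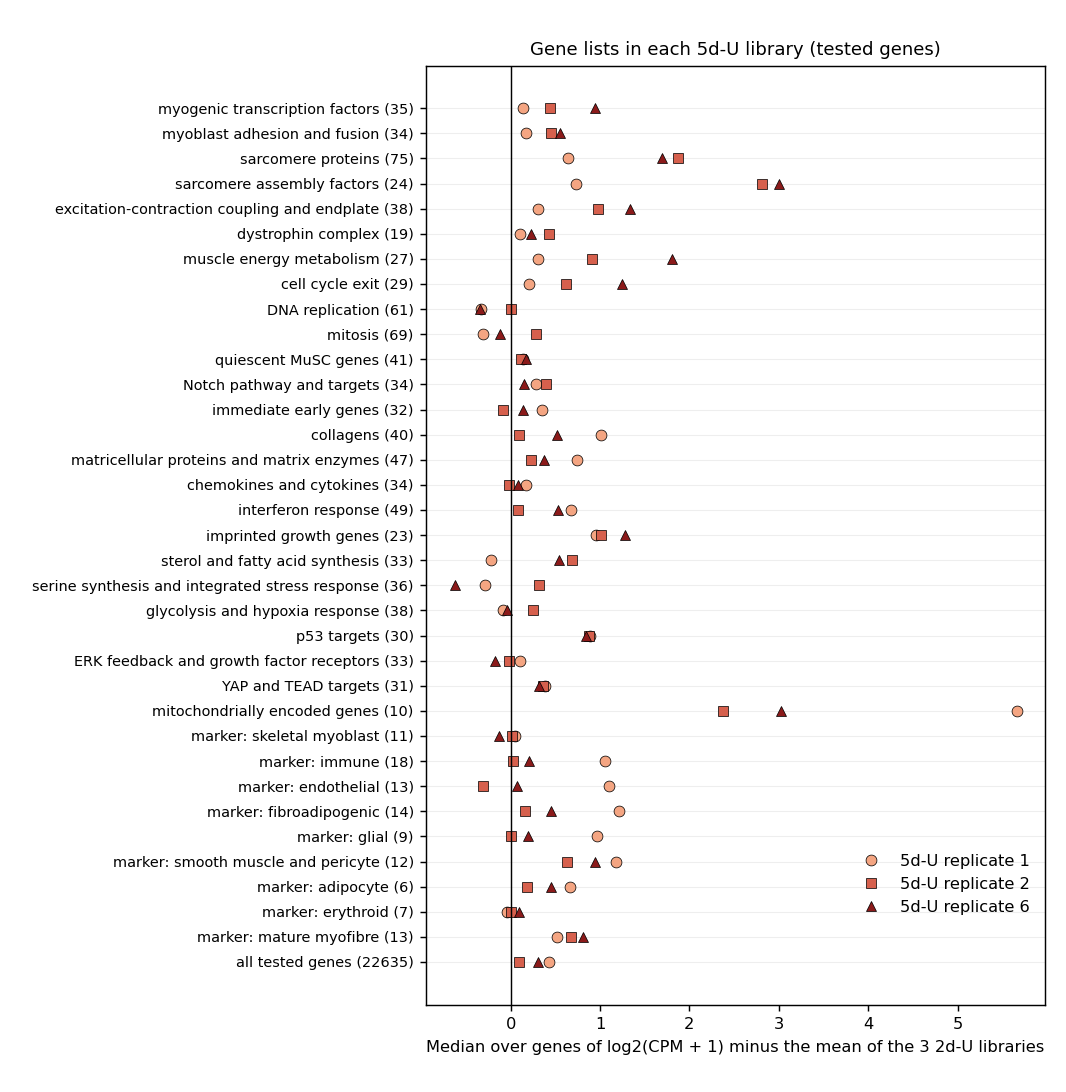
Median over the tested genes of each list of log2(CPM + 1) minus the mean of the 3 2d-U libraries (horizontal axis), for each 5d-U library (marker) and list (vertical axis, number of genes in brackets). The medians over all tested genes are 0.43, 0.10 and 0.30 in replicates 1, 2 and 6. The sarcomere assembly and energy lists lie to the right in replicates 2 and 6. The mitochondrially encoded genes lie to the right in all 3 replicates, at 5.66, 2.38 and 3.03, and furthest in replicate 1.

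Genes of DNA replication and mitosis were not called in the fit over all 12 libraries. None of 61 genes of DNA replication and none of 69 of mitosis was called with the quasi-likelihood test, and their median log2 fold changes were -0.16 and -0.06. At an unadjusted p under 0.05, 3 replication genes were lower and none higher, and 3 mitotic genes higher and 1 lower. DESeq2, which called 11.2% of all genes higher and 1.81% lower, called 2 replication genes lower, and 2 mitotic genes higher and 1 lower. With the 6 compared libraries alone the quasi-likelihood test called 1 replication gene lower, and 3 mitotic genes higher and 3 lower. Mki67, a marker of cycling cells, had 44.9, 31.3 and 41.8 CPM in 5d-U and 19.5, 26.6 and 21.8 in 2d-U (log2 fold change 0.80, SE 0.53, quasi-likelihood adjusted p = 0.305). The groups did not overlap, by a margin below the spread of the 5d-U values. Rrm2, the inducible subunit of ribonucleotide reductase, had 2364, 2858 and 2005 CPM against 2435, 2381 and 2628, and Top2a, the mitotic topoisomerase, 144, 207 and 129 against 185, 126 and 118. Cdk1, the kinase that drives mitosis, had 456, 622 and 1187 CPM against 478, 497 and 482, with replicate 6 the highest. Mcm5, a part of the replicative helicase, had 196, 272 and 103 CPM against 493, 392 and 394, every 5d-U library below every 2d-U library, and a log2 fold change of -1.16 (SE 0.40) that did not pass (quasi-likelihood adjusted p = 0.102). In all, 13 of the 61 replication genes lay below 2d-U in every 5d-U library and 2 above, beside 5.43% and 31.6% of all tested genes. Of the 69 mitotic genes, 11 lay below and 12 above. Ccnd1, the cyclin induced by growth factors, was variable, with 754, 261 and 1122 CPM against 283, 334 and 294.

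Genes linked to leaving the cycle rose beside this, and not only in replicates 2 and 6. Cdkn1a, the p21 inhibitor of cyclin kinases, had 646, 605 and 2732 CPM in 5d-U and 164, 176 and 173 in 2d-U. Every 5d-U library was more than 3-fold above every 2d-U library, and the log2 fold change was 2.96 (SE 0.61, quasi-likelihood adjusted p = 0.0290). Btg2, an antiproliferative target of p53, had 44.4, 43.7 and 105 CPM against 8.86, 4.62 and 11.6 (log2 fold change 2.94, SE 0.48, quasi-likelihood adjusted p = 0.0125). Gdf15, a secreted stress factor, had 31.8, 33.3 and 133 CPM against 3.23, 3.13 and 4.21 (log2 fold change 4.23, SE 0.72). Gas6, first known as a growth-arrest gene and a ligand of Axl, had 22.0, 125 and 161 CPM against 5.58, 9.56 and 9.06 (log2 fold change 3.68, SE 0.60). Btg2, Gdf15 and Gas6 passed in all 21 alternatives. Cdkn1c, the p57 inhibitor that acts with Myod1, had 1.17, 5.02 and 13.3 CPM against 0.416, 0 and 0 (log2 fold change 5.37, SE 1.21, quasi-likelihood adjusted p = 0.0382). Over the list of cell cycle exit, 4 of 29 genes rose and 1 fell, and over the p53 targets 4 of 30 rose, with Btg2 and Cdkn1a in both, beside 1.87% higher and 0.243% lower over all tested genes. Each list had 2 higher genes after subtraction of the silent-family density, and also without replicate 6, while without replicate 1 there were 9 and 6. The 1 that fell was E2f4, the repressor E2F of resting cells, with 69.5, 52.4 and 64.4 CPM against 329, 327 and 376, an RPKM of 25.3 ± 3.59 (SD, n = 3) against 140.2 ± 11.4 (log2 fold change -2.47, SE 0.37, edgeR quasi-likelihood adjusted p = 0.00912).

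Some abundant genes were higher in all 3 5d-U libraries, replicate 1 included, and were chosen after their values were seen. Actb, the cytoplasmic actin, was the most abundant of them, with 16137, 10676 and 22833 CPM against 1644, 1711 and 1793. The 5d-U libraries were far above every 2d-U library, and the log2 fold change of 3.27 (SE 0.54, quasi-likelihood adjusted p = 0.0133) passed in all 21 alternatives. Its near-identical relative Actg1 had 487, 411 and 218 CPM against 485, 388 and 378 (quasi-likelihood adjusted p = 0.822), and with the copies of Actb in the genome the division of reads between them is uncertain. Serpine2, a secreted protease inhibitor, had 233, 263 and 566 CPM against 25.7, 13.4 and 29.5 (log2 fold change 3.95, SE 0.58, quasi-likelihood adjusted p = 0.00841). Atp5g3, a subunit of the mitochondrial ATP synthase, had 821, 1272 and 2844 CPM against 168, 164 and 154 (log2 fold change 3.35, SE 0.56). Both passed in all 21 alternatives, and their groups were separated by several fold. Lgals3, a galactose-binding lectin, had 624, 1343 and 3552 CPM against 157, 246 and 164 (quasi-likelihood adjusted p = 0.0342). Anxa1, a calcium-dependent membrane protein, had 748, 1892 and 3611 against 419.6, 485 and 385 (quasi-likelihood adjusted p = 0.0474). Of the 21 alternatives, Lgals3 passed in 13 and Anxa1 in 8. For Lgals3, Anxa1 and Atp5g3 replicate 6 was the highest and replicate 1 the lowest of the 5d-U libraries.

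The 15 largest rises also included genes that are not part of the muscle program. All genes described next had no read in 2d-U. Aqp5, a water channel of glands, had 0.694, 19.1 and 75.8 CPM (at least 398-fold), Sp7, a factor of bone cells, 0.867, 25.8 and 41.9 (at least 285-fold), and Tbx2, a T-box factor, 1.47, 10.9 and 39.5 (at least 216-fold). Nnat, an imprinted membrane protein, had 0.954, 2.23 and 103 CPM (at least 443-fold) and Fabp7, a fatty acid carrier, 0.780, 5.34 and 61.4 (at least 281-fold), so replicate 6 gave most of both values. Among muscle genes, Lmod3, an actin nucleator of thin filaments, had 0.564, 32.0 and 40.3 CPM (at least 303-fold) and Smpx, a small muscle protein, 0.130, 17.4 and 45.6 (at least 262-fold). Rgs17, a regulator of G-protein signalling, had 5.12, 8.37 and 33.3 CPM (at least 194-fold). 2 genes were high in replicate 1 alone: Lyz2, the lysozyme of macrophages, with 95.3, 0.279 and 0.440 CPM (quasi-likelihood adjusted p = 0.0417), and Akr1c18, a steroid dehydrogenase, with 55.6, 0.384 and 0.244 (quasi-likelihood adjusted p = 0.0493). Without replicate 1 the adjusted p of Akr1c18 was 0.190, the highest of a range that began at 4.79e-08, and that of Lyz2 was 0.0301 within a range of 1.37e-34 to 0.0851.

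All 55 genes that fell had every 5d-U library below every 2d-U library, as 5.43% of all tested genes did. They were called from these same libraries, and 414 of the 424 higher genes did not overlap either. The lowest of the 5d-U libraries was replicate 1 for 12 of the 55, replicate 2 for 24 and replicate 6 for 19. The largest fall was that of Car12, a membrane carbonic anhydrase, with 4.21, 0.732 and 0.440 CPM against 25.3, 16.4 and 35.0 (log2 fold change -3.83, SE 0.90, quasi-likelihood adjusted p = 0.0445). Ccnk, the cyclin of the kinases that act on elongating RNA polymerase, had 5.94, 1.53 and 3.22 CPM against 43.7, 47.1 and 54.6 (log2 fold change -3.76, SE 0.65). Epn1, an endocytic adaptor, had 11.7, 14.8 and 10.8 CPM against 123, 119 and 121 (log2 fold change -3.28, SE 0.50, quasi-likelihood adjusted p = 0.00912). For Epn1 the spread within each group was a small share of the difference. Actn1, the non-muscle alpha-actinin of adhesions, had 37.9, 35.1 and 42.2 CPM against 293, 414 and 323 (log2 fold change -3.16, SE 0.48). Cotl1, which binds actin filaments, had 5.33, 2.58 and 2.00 CPM against 32.3, 25.1 and 36.1, and Fscn1, the filament bundler, chosen after its values were seen, 56.6, 239.9 and 145 against 1037, 877 and 948 (log2 fold change -2.69, SE 0.61). Actb, in contrast, was higher. Slc7a5, a carrier of large amino acids, had 47.7, 42.5 and 29.8 CPM against 398, 318 and 327 (log2 fold change -3.12, SE 0.70, quasi-likelihood adjusted p = 0.0377). Zc3h12a, a nuclease that degrades inflammatory mRNAs, had 7.15, 2.20 and 2.74 CPM against 25.1, 24.7 and 66.2 (log2 fold change -3.26, SE 0.58). The other 8 of the 15 largest falls were Wdtc1, Npm3, Zfp628, Ddx19a, Smarcd1, Zfp703, Furin and Mink1, with log2 fold changes of -3.48 to -2.84. Ccnk, Epn1, Zc3h12a, Cotl1 and Actn1 passed in all 21 alternatives.

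Some regulatory and signalling genes changed beside the muscle genes. Of 34 Notch pathway genes, Nrarp alone rose, at 0.347, 0.523 and 0.391 CPM against no read in 2d-U (at least 5.24-fold, quasi-likelihood adjusted p = 0.0181). That is 1 gene, a share near the 1.87% of all tested genes, and none was called after subtraction of the silent-family density or with the 6 compared libraries alone. Hes1, a Notch target, had 39.9, 117 and 249 CPM against 28.3, 29.4 and 25.0 (log2 fold change 2.30, SE 0.57) and just missed the threshold (quasi-likelihood adjusted p = 0.0519). Hes6, which favours myogenic differentiation, had 354, 2078 and 7934 CPM against 394, 479 and 354, a large spread that was not called (quasi-likelihood adjusted p = 0.118). Of 23 imprinted growth genes 6 rose (26.1%, against 1.87% of all tested genes), but none after subtraction of the silent-family density, 1 without replicate 6, 10 without replicate 1 and 3 with the 6 compared libraries alone. H19, the most abundant of these RNAs, had 39.2, 468 and 469.6 CPM against 13.0, 27.1 and 9.30 and was not called (quasi-likelihood adjusted p = 0.0990). Its neighbour Igf2, a growth factor of myoblasts, had 0.173, 0.453 and 9.09 CPM against 0.0378, 0 and 0, a ratio of 257 with a counting interval of 71.1 to 2122 (quasi-likelihood adjusted p = 0.0474). Peg3, a factor of stem and progenitor cells, had 70.1, 237 and 157 CPM against 25.6, 25.0 and 16.9 (log2 fold change 2.78, SE 0.67). Of 49 interferon response genes 10 rose (20.4%) and none fell, with 2 higher both after subtraction of the silent-family density and with the 6 compared libraries alone. Gbp4, a guanylate-binding protein, had the smallest p of the list, at 7.93, 11.2 and 27.0 CPM against no read in 2d-U (at least 192-fold, quasi-likelihood adjusted p = 0.00175). Spry2, a feedback inhibitor of growth factor signalling, rose from 3.87, 2.98 and 1.91 CPM in 2d-U to 16.2, 12.4 and 59.9 in 5d-U (log2 fold change 3.34, SE 0.64, quasi-likelihood adjusted p = 0.0222), while Spry1, its relative in quiescent MuSCs, had 22.7, 15.3 and 12.2 CPM against 55.4, 51.7 and 44.8 and missed the threshold (quasi-likelihood adjusted p = 0.0502). Vgll2, a cofactor of TEAD factors in muscle, fell from 127, 154 and 141 CPM to 19.6, 39.7 and 22.4 (log2 fold change -2.37, SE 0.42, quasi-likelihood adjusted p = 0.0164).

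Replicate 1 held the highest levels of mitochondrially encoded genes and the highest sums of immune and endothelial markers. Of 10 mitochondrially encoded genes tested, 7 rose (1.87% of all tested genes did), with 4 higher with the 6 compared libraries alone and 2 with GC and length trends removed, and the summed level of the 13 in the files was 38201, 3714 and 9378 CPM in 5d-U replicates 1, 2 and 6 against 419.5 to 1005 in 2d-U. mt-Cytb, a subunit of complex III, had 14543, 1229 and 4972 CPM against 173, 287 and 109 (log2 fold change 5.19, SE 0.83, quasi-likelihood adjusted p = 0.0119). All 3 5d-U libraries were above every 2d-U library, replicate 1 by the most. Among cell types that a FACS gate could let through, the 18 immune markers summed to 196, 23.4 and 74.8 CPM against 7.53 to 18.0 and the 13 endothelial markers to 70.0, 9.70 and 23.1 against 16.4 to 23.7. Ptprc, which defines leukocytes, had 9.06, 0.0349 and 1.12 CPM and no read in 2d-U (quasi-likelihood adjusted p = 0.0501), with 3.00 CPM at the silent density in replicate 1. The 7 erythroid markers summed to 1.13 CPM at most. In the replicates with high Myog, 2 and 6, the immune and endothelial sums did not exceed 74.8 CPM. The 14 fibroadipogenic markers summed to 183 to 237 CPM in 5d-U and 129 to 229 in 2d-U, and the 12 smooth muscle and pericyte markers to 639, 1827 and 1421 against 486 to 647, of which Des and Acta2, both also made by myoblasts and neither called, form the largest part. Of these 12, Rgs5, Abcc9, Myh11 and Pdgfrb were called higher (33.3%, against 1.87% of all tested genes), each with no read in 2d-U. Rgs5, a pericyte gene also on the quiescent MuSC list, had the smallest p of them, at 1.73, 1.67 and 6.06 CPM in 5d-U (at least 39.3-fold, quasi-likelihood adjusted p = 0.00643). Pdgfrb, the receptor that defines pericytes, had 2.12, 0.628 and 0.977 CPM (at least 15.5-fold, quasi-likelihood adjusted p = 0.0187), with 0.898 CPM at the silent density in replicate 1. After subtraction of that density 2 of the 12 were higher. Of the other lists, Lum and Ly6a of the fibroadipogenic, Flt1 of the endothelial and Lyz2 of the immune markers were called higher, and after the subtraction 1 fibroadipogenic, no endothelial and no immune marker. Their part in the results was not tested.

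The day 5 levels also differed from the other groups of the series, whose comparisons share the 5d-U libraries. Mki67 was at 0 to 0.0375 CPM in 2+3d-C and 5.28 to 7.56 in F, and Rrm2 at 6.08 to 50.8 and 10.1 to 142, both below every 5d-U library (quasi-likelihood adjusted p = 4.90e-06 and 0.00444 for Mki67, and 0.000329 and 0.00108 for Rrm2). Myog was at 0 to 0.0187 CPM in 2+3d-C, the group of the same 5 days of culture, against 0.564 to 1655 in 5d-U (log2 fold change 15.73, quasi-likelihood adjusted p = 0.00314). In F it spanned 1.33 to 343 CPM and the difference from 5d-U was not called (quasi-likelihood adjusted p = 0.313). Against 2+3d-C, 13.4% of the tested genes were higher in 5d-U and 9.14% lower, and against F 11.6% and 8.90%, beside 1.87% and 0.243% against 2d-U. Cdkn1a reached 542 to 1795 CPM in 2+3d-C, which overlaps the 605 to 2732 of 5d-U (quasi-likelihood adjusted p = 0.634).

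The called genes also differed in base composition and length, measured on the longest transcript of each gene in the reference annotation. Among genes averaging 10 CPM or more, the 52 that fell had a median GC content of 57.3% and the 117 that rose 47.4%, against 49.3% for all. In replicate 1 the median log2 difference from 2d-U went from 0.30 in the bin of lowest GC content, of 5 equal bins, to -0.33 in the bin of highest. In replicate 2 it went from 0.57 to 0.04, and in replicate 6 from 0.59 to -0.05. By length, the bin of shortest genes lay 1.63 above 2d-U in replicate 6 and 0.16 and 0.45 above in replicates 1 and 2. The 2d-U libraries stayed within 0.20 of their mean in every bin. These trends were removed from each library in a setting added once the values were known. It gave 229 higher genes (1.01%) and 120 lower (0.53%), including 224 of the 424 and 50 of the 55, and 10 sarcomere genes were higher. Actb, Tnnt1, Cdkn1a, Btg2, E2f4 and Epn1 stayed under the threshold.

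**Figure D4:**
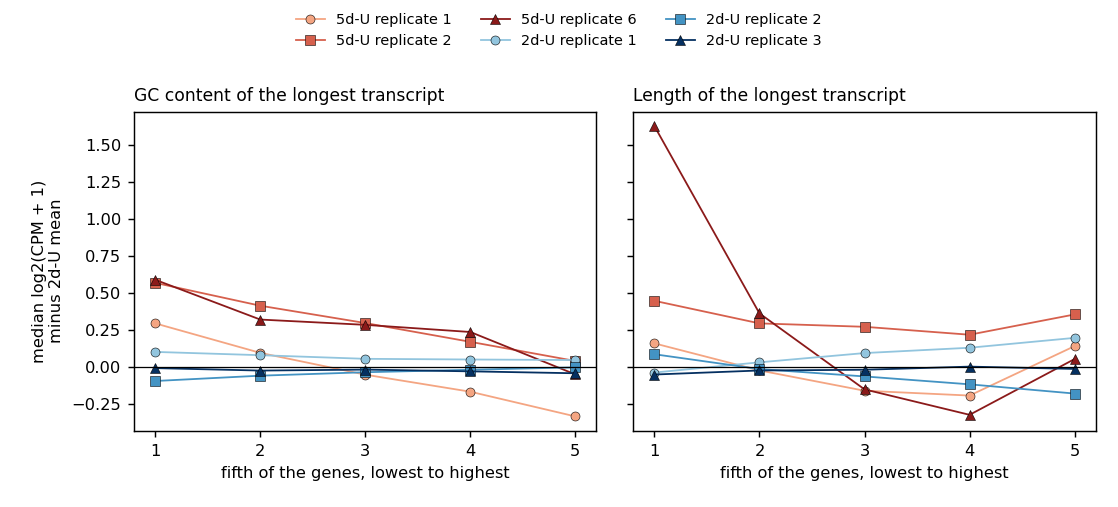
Median log2(CPM + 1) minus the 2d-U mean in 5 equal bins of the genes averaging 10 CPM or more, by GC content and by transcript length (horizontal axes), with a line per library. With GC content replicate 1 falls from 0.30 to -0.33, replicate 2 from 0.57 to 0.04 and replicate 6 from 0.59 to -0.05. Replicate 6 is highest, at 1.63, for the shortest genes.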

How the data were processed

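RNA was amplified with the SMART-seq v4 kit and sequenced, as single-end reads by the methods. The authors ran the nf-core RNA-seq pipeline on mm10, and per the file headers reads were counted on exons of GENCODE vM23 genes with featureCounts 1.6.4, with the option for paired reads, without strand and without an option to count multi-mapped reads. The deposited values are raw counts for 55335 genes, not normalized. Reads of antisense or overlapping genes therefore cannot be told apart.

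Libraries were grouped by their labels. Counts of all 12 libraries, 12540745 to 62424851 per library, were fitted in R 4.3.3 with edgeR 4.0.16: filterByExpr by group (22635 genes kept), TMM scaling, a coefficient per group and the quasi-likelihood test of 5d-U minus 2d-U, two-sided, with Benjamini-Hochberg adjustment over the 22635 genes and a threshold of 0.05. An exact permutation test of 3 against 3 libraries cannot go below 0.1, so none was made. CPM used TMM-scaled library sizes, and RPKM also the exon length in the files. Differences of single libraries are on log2(CPM + 1), a scale that understates the change of low genes. Where every 2d-U library was at 0, the fold was computed against 3 counts in each library, and with 1 to 3 counts a 95% counting interval is given. These cover counting error only, since amplified reads that carry no molecular identifier are not separate molecules.

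Named genes were a fixed set of 19, the 15 largest rises and the 15 largest falls among called genes averaging 10 CPM or more, with no overlap of the libraries and a symbol that is no clone name or pseudogene, and of each list the 3 most abundant members (mean CPM) and the 3 of smallest p. Genes outside this rule carry a remark that they were picked with their values known. The members and gene lists were chosen with earlier results of these data known. Alternatives were DESeq2 1.42.0 (authors' tool, on the same counts), no TMM, the 6 compared libraries alone, no filter, genes averaging 5 CPM or more, subtraction of the read density of silent families, a replicate block, each library left out, and 2 added after seeing the data. The model was tested on simulated counts for 20085 genes of 5d-U against 2d-U: 0 of 50 genes changed 2-fold, 3 of 50 changed 4-fold, 30 of 50 changed 8-fold and 40 of 50 changed 16-fold were called, with 5 false calls. The changed genes averaged 5 CPM or more, and all groups were drawn with the same dispersion for a gene. The real 5d-U libraries spread more than the 2d-U libraries, and many called genes averaged less. The simulated rates therefore need not hold for the calls above. Promoters are those of RefSeq on GRCm38.p6, and GC content and transcript length come from the GENCODE annotation in the reference.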

Additional observations from a re-analysis of the deposited data

How the results depend on the processing

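The number of called genes depended on the processing. Higher and lower genes numbered 126 and 45 without TMM, 1867 and 199 without a filter on low counts, 116 and 74 for genes averaging 5 CPM or more, 94 and 45 after subtraction of the silent-family density, 479 and 289 with the 6 compared libraries alone, 2486 and 403 with DESeq2, and 22 and 3 at an adjusted p under 0.01. Chosen after the data were seen, removal of GC and length trends gave 229 and 120, and subtraction of the silent density with 5d-U replicate 1 left out 247 and 47. The share of calls that were higher was 88.5%, but 73.7% without TMM, 65.6% with the trends removed and 62.4% with the 6 libraries alone. Leaving out 1 library gave 142 to 1239 higher genes and 11 to 129 lower. The higher count was 771 and 235 without 5d-U replicates 2 and 6, 213, 187 and 142 without 2d-U replicates 1, 2 and 3, 761, 720 and 1239 without 2+3d-C replicates 4, 5 and 10, and 193, 203 and 159 without F replicates 1, 4 and 5. The lower count moved by over 1.5 times without 5d-U replicate 6 (14), 2d-U replicates 1, 2 and 3 (18, 21 and 11), 2+3d-C replicates 5 and 10 (129 and 95) and F replicates 4 and 5 (30 and 25). The cause was not tested. With the replicate number as a block, 642 genes were higher and 33 lower, 283 and 24 of them shared with the fit without the block. Whether the numbers pair the libraries cannot be told from the counts. Deviations of same-numbered libraries correlated at 0.15 for replicate 1 and -0.17 for replicate 2, within the -0.28 to 0.28 of other pairs. Replicate 6 has no partner. No named gene that was called changed its direction under these settings, while some that were not called did, such as Actg1 (log2 fold change -0.56 to 0.11).

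3 libraries in a group limit what can be called. Genes of a few reads can be called only when their 2d-U counts are at or near 0. The simulated 2-fold and 4-fold changes were seldom called, but the simulation gave all groups the same spread, which the real groups do not have. The 5d-U libraries differ in reads on silent genes and in the share of mitochondrial reads, and these cannot be told apart from time in culture, since no 2d-U library has them to the same degree.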

Other observations

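Gene groups not described above gave few calls, to be read beside 1.87% higher and 0.243% lower over all tested genes. Of 41 genes tested that mark quiescent MuSCs, Rgs5, Pdgfd and Peg3 rose and none fell. At an unadjusted p under 0.05, 9 were higher and 7 lower, beside 7472 and 467 of the 22635 genes tested. Without replicate 1 the quasi-likelihood test called 4 higher and 5 lower, beside 2.15% and 0.263% of all genes. DESeq2 called 7 higher and 5 lower, beside 11.2% and 1.81%. Every 5d-U library was above every 2d-U library for 10 of the 41 and below for 8, beside 31.6% and 5.43% of all tested genes. Calcr, the calcitonin receptor of quiescent MuSCs, had 1.21, 0 and 0.147 CPM in 5d-U and 0.151, 0 and 0 in 2d-U and was not called (edgeR quasi-likelihood adjusted p = 0.184), against 28.7 to 78.5 CPM in 2+3d-C. Of 32 immediate early genes Btg2 and Egr3 rose and Maff and Fosl2 fell. Maff, a small Maf factor, had 5.25, 6.31 and 2.59 CPM against 17.8, 25.3 and 24.1 (log2 fold change -2.24, SE 0.47, edgeR quasi-likelihood adjusted p = 0.0301). Of 34 chemokines and cytokines Ccl11 rose, at 0.0867, 0.279 and 0.293 CPM, and Cx3cl1 and Csf3 fell. Csf1, the growth factor of macrophages, was the most abundant of them, with 576, 320.4 and 211 CPM against 1643, 1403 and 2304, and just missed the threshold (log2 fold change -2.27, SE 0.60, edgeR quasi-likelihood adjusted p = 0.0610).

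Extracellular matrix genes gave 2 rises and no fall among 40 collagens, beside 1.87% and 0.243% of all tested genes. The higher collagens numbered 0 after subtraction of the silent-family density, 0 without replicate 6 and 10 without replicate 2. DESeq2 called 19 collagens higher, beside 11.2% of all genes. Among 47 matricellular proteins and matrix enzymes Sparcl1, Lum and Ogn rose and Loxl1 fell, with 1 higher and none lower after the subtraction. Spp1, osteopontin, was the most abundant on the CPM scale, with 3275, 10896 and 27067 CPM against 3078, 2852 and 2503, and was not called (edgeR quasi-likelihood adjusted p = 0.110). None of 33 genes of sterol and fatty acid synthesis was called by edgeR, with 3 higher and 1 lower at an unadjusted p under 0.05, and DESeq2 called 1 lower. Of 38 genes of glycolysis and hypoxia Eno2 rose and Slc2a3 fell, and of 36 of serine synthesis and the stress response Gdf15 rose and Slc7a5 fell. Ldha, a main enzyme of lactate formation, had 2933, 3639 and 4251 CPM against 3159, 3306 and 3037 and was not called. Of 31 YAP and TEAD targets none rose and Vgll2 fell; 5 were higher and 3 lower at an unadjusted p under 0.05.

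Genes that share sequence with repeats or with the mitochondrial and ribosomal RNAs, chosen after their values were seen, were highest in 5d-U replicate 1. Lars2, a mitochondrial tRNA ligase, had 18966, 729 and 3746 CPM in 5d-U replicates 1, 2 and 6 and 43.5, 55.4 and 29.9 in 2d-U, Gm15564 3814, 187 and 953 against 3.55, 4.15 and 2.77, and Gm10800 9381, 274 and 1103 against 0.227, 0.0392 and 0.111. The assignment of these reads to 1 gene is uncertain. Of the remaining lists of cell markers, none of 9 glial markers and none of 7 erythroid markers was called by edgeR, with 5 and 3 higher at an unadjusted p under 0.05, and DESeq2 called 3 and 1 higher. Of 6 adipocyte markers tested Car3 alone rose, with 1.95, 66.2 and 118 CPM in 5d-U replicates 1, 2 and 6. The adipocyte markers Adipoq, Plin1 and Cidec had at most 0.342 CPM in any of the 6 libraries and were not tested. Of 13 mature myofibre markers Ckm and Xirp2 rose.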
